A study of Mus musculus with 18 samples.

Results

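The 10 genes described here make up the core of Notch signalling: the receptors Notch1, Notch2 and Notch3, the ligands Dll1 and Jag1, the nuclear effectors Hes1, Hes5, Hey1 and Hey2, and the DNA-binding factor Rbpj. They were chosen by symbol. All 10 were listed among the 35734 genes of the fibroblast RNA table, and 9 of them were among the 16757 genes that carry an adjusted p there. In the retina all 10 had a gene window, which is the gene body with 2 kb added on both sides, among the 21883 windows counted.

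Notch signalling passes between touching cells. A Delta or Jagged ligand on one cell pulls on a Notch receptor on its neighbour, ADAM and gamma-secretase proteases cut the receptor, and the freed intracellular domain joins RBPJ on DNA and recruits Mastermind co-activators. The usual targets are the HES and HEY genes, which encode basic helix-loop-helix repressors. In the retina the pathway is known for keeping progenitors undifferentiated and for supporting the formation of Muller glia, the main glial cell of the tissue. RBPJ is known to bind sites with the core TGGGAA, and Ikaros-family zinc-finger proteins, which include the products of Ikzf1 and Ikzf4, sites with the core GGGAA, so that the second core lies inside the first.

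The study added Ikzf1 and Ikzf4 to mouse cells in 2 settings. C57BL/6 mouse embryonic fibroblasts (MEFs) of the R26-M2rtTA line, which supplies the doxycycline-dependent activator, carried doxycycline-inducible lentiviral vectors for Brn2 (gene symbol Pou3f2) and Myt1l in both groups, and for Ikzf1 and Ikzf4 as well in one of them. These cultures were sampled after 48 h of doxycycline, with 3 RNA libraries per group. Whether the 3 came from separate embryos or infections is not said in the labels, so the p-values measure the spread between these cultures, which may be technical. In the retina, 1 control library and 1 Ikzf1/4 library of a multiome assay (chromatin accessibility by ATAC and RNA from the same nuclei) were used for their ATAC fragments. The control is labelled as C57BL/6 Muller glia of the GLAST-CRE ERT2 ; RosaYFP line, in which a tamoxifen-activated Cre driven by a glial promoter switches on YFP, with mCherry as its condition. Both libraries carry the note of tamoxifen at 14 days, and the run names in both file headers carry 48 h. For the Ikzf1/4 library the labels repeat the sample title in place of the cell type, line, strain and condition. Whether cells were sorted for either library is not said. Of the series' 18 samples, the 4 single-cell RNA samples, which include the RNA of both multiome libraries, were not analysed here. Nor were the 6 ATAC samples of the same fibroblast groups.

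The promoters below are shown because they lie in the start-site regions whose accessibility was measured, for the genes on which the results turn. RefSeq on GRCm38.p6 gave the 250 bases before the annotated start for 8 of the 10 genes. Each is printed from 5′ to 3′ on the strand of its gene, with GGGAA, or TTCCC for the same core on the opposite strand, in capitals.

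Hes5, chr4:154960673-154960922, plus strand: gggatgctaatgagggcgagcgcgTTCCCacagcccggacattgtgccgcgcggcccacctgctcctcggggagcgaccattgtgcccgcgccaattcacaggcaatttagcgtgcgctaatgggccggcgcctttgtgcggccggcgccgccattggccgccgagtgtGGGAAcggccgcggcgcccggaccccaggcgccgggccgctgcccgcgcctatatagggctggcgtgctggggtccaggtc
Hey2, chr10:30842784-30843033, minus strand: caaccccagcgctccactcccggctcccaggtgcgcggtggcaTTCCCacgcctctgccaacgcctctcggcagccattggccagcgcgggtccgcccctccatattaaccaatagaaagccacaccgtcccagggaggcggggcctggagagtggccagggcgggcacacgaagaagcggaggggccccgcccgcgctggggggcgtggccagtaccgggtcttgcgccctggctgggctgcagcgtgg
Jag1, chr2:137116521-137116770, minus strand: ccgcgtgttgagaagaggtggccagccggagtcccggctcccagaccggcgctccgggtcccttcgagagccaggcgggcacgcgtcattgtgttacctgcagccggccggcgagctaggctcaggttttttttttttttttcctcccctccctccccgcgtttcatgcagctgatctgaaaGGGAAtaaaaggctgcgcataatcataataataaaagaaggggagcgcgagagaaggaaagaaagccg
Notch1, chr2:26503823-26504072, minus strand: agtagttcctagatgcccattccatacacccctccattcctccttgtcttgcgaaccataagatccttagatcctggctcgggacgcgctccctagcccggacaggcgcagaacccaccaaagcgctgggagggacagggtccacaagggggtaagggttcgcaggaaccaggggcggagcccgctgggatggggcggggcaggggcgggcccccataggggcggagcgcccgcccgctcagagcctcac

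The Hes5 promoter holds the RBPJ core TGGGAA in both orientations, once on the opposite strand at 226 to 221 bases before the start and once on the gene's strand at 82 to 77 bases. At least 2 matches on either strand were found in 2.8% of the 32851 RefSeq promoters of this length, and at least 1 in 21.6%. Hey2 holds 1 TGGGAA on the opposite strand at 207 to 202 bases before the start, and the Rbpj promoter whose start is at the lowest coordinate holds 2. The shorter core GGGAA, which is found in 56.2% of promoters, is present once in Jag1, at 68 to 64 bases, and is not in these windows of Notch1 and Notch3. A match describes the letters only.

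Depth was 34966344 to 44270426 estimated reads per fibroblast RNA library. The control multiome library held 52119123 unique fragments and the Ikzf1/4 library 29358834. After limits of 3000 fragments per cell and a 4-fold enrichment of fragments at gene ends, 1857 control and 675 Ikzf1/4 cells were left, with medians of 6206 and 10838 fragments, so the Ikzf1/4 cells were more deeply sequenced. Only 3 barcodes occurred in both. The added genes followed the labels in the fibroblasts: the authors' deposited table gives log2 fold changes of 7.76 for Ikzf1 and 8.54 for Ikzf4, against -0.05 for Pou3f2 (adjusted p = 0.689) and 0.50 for Myt1l (SE 0.17, adjusted p = 0.0157).

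In the fibroblasts with Ikzf1 and Ikzf4, RNA of the receptors Notch1 and Notch2 and of Hey1 was higher and RNA of Jag1 lower. Of the 9 genes with an adjusted p, 3 rose (Notch1, Notch2, Hey1), 1 fell (Jag1) and 5 did not pass an adjusted p of 0.05 in the authors' deposited table. These 4 calls stand beside a background of 30.6% of all 16757 genes called, 15.3% higher and 15.4% lower. The share called grows with the mean normalised count, from 12.4% of genes under a mean of 100 to 33.1% between 100 and 1000 and 40.5% above, and all 4 called genes have means over 100. The median log2 fold change of the 9 genes was -0.02, beside -0.0004 for all genes. Gene-level values of each library were not analysed here, because the per-library files list transcripts. The values that follow are the authors' own, and no source says whether shrinkage was applied to them. Their standard errors are small at low means, as those of shrunken values are, with 0.05 for Hes3 at a mean of 0.155. The fold changes are thus to be read as probably shrunken towards no change.

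Notch1, the receptor whose intracellular domain is the usual carrier of the signal (ENSMUSG00000026923), had a mean of 941 normalised counts and rose by a log2 fold change of 0.46 (SE 0.09, adjusted p = 1.34e-05) in the authors' deposited table. Notch2 (ENSMUSG00000027878), its broadly expressed relative, rose by 0.30 (SE 0.08, adjusted p = 0.00151) at a mean of 2056.6 in the authors' deposited table. Notch3, the receptor best known from pericytes and smooth muscle, stood at 0.10 (SE 0.07, adjusted p = 0.298) there. The 2 called receptors thus differed by 1.37-fold and 1.23-fold between the groups.

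The ligands gave the largest fall. Jag1 (ENSMUSG00000027276), with a mean of 3963.2 normalised counts, fell by 0.63 on the log2 scale (SE 0.07, adjusted p = 1.87e-16) in the authors' deposited table, to 0.645 times its level without Ikzf1 and Ikzf4. Its absolute change was larger than that of 93.5% of genes with an adjusted p. Dll1, the Delta ligand, was sparse at a mean of 15.4 normalised counts, and its value of -0.21 (SE 0.22, adjusted p = 0.519) in the authors' deposited table did not pass the test.

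Among the effectors only Hey1 passed. Hey1 (ENSMUSG00000040289), a repressor known from vessels and heart as well as neural progenitors, rose by 0.80 (SE 0.16, adjusted p = 2.79e-06) at a mean of 169 in the authors' deposited table, a 1.74-fold difference. Its paralogue Hey2 stood at -0.02 (SE 0.17, adjusted p = 0.940) and Hes1 at -0.20 (SE 0.10, adjusted p = 0.134) there. Hes5 had a mean of 1.17 normalised counts and no adjusted p in the authors' deposited table, so that nothing can be read from it in these cells. Rbpj, the factor through which all receptors act, had a log2 fold change of -0.13 (SE 0.05, adjusted p = 0.0526) there, just outside the threshold.

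**Figure D1:**
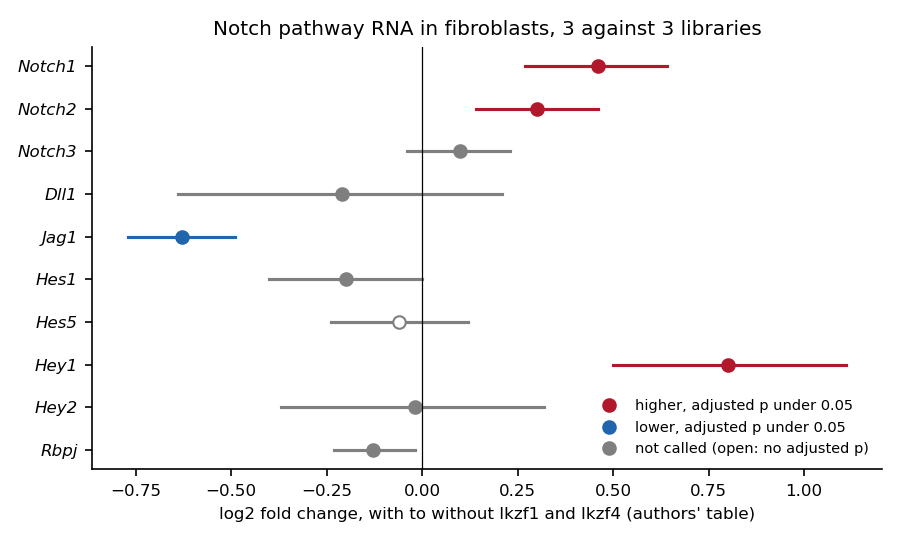
Log2 fold changes of the 10 genes in fibroblasts with Ikzf1 and Ikzf4 against those without, from the authors' deposited table (x axis, log2 units); points are the authors' estimates and lines 95% intervals computed from their standard errors. Notch1, Notch2 and Hey1 lie right of 0 and Jag1 left of it, and the other 6 were not called.

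The wider pathway moved to about the same extent as all genes. Of 66 listed genes 62 had an adjusted p in the authors' deposited table, of which 12 rose and 8 fell, or 32.3%, with a median log2 fold change of -0.02. Kept to the genes outside the 10, the count was 9 higher and 7 lower of 53. Both Jagged ligands were called in opposite directions, with Jag2 at 0.48 (SE 0.12, adjusted p = 0.000468). Dlk1, a membrane protein that resembles Delta but lacks the receptor-activating domain, had the largest change of the lists, a rise of 1.72 (SE 0.11, adjusted p = 1.55e-51), and Dner, another non-canonical ligand, fell by 0.49 on the log2 scale, both in the authors' deposited table.

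Calls among the processing enzymes went both ways. The counts by role stand beside 30.6% of all 16757 genes called, and 40.5% of those with means over 1000. Of 9 proteases 2 rose and 3 fell in the authors' deposited table; Adam17, a sheddase, rose by 0.36, while Adam10, the main protease of ligand-induced cleavage, fell by 0.31 and Psen2, a catalytic subunit of gamma-secretase, by 0.36. Among the 8 tested nuclear partners the co-activator Maml2 rose by 0.55 and the acetyltransferase Ep300 by 0.46, and the acetyltransferase Kat2a fell by 0.32, in the same authors' deposited table. Among the co-repressors Kdm5a, a histone demethylase, rose by 0.21 and Spen by 0.15 there, and none of the 9 fell. Neurl1a, which ubiquitinates ligands, and Rfng, a Fringe sugar transferase, were the calls of their lists, at -0.39 and -0.40 in the authors' deposited table. None of the 9 negative regulators was called by the authors' DESeq2 fit, and 1 (Nrarp) had an unadjusted p under 0.05.

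Markers of cell types were counted in the same comparison, beside the background of 30.6% of all genes called and 40.5% of those with means over 1000: 5 of 8 fibroblast markers fell (median log2 fold change -0.38), and of 7 smooth muscle and pericyte markers 1 rose and 4 fell (median -0.32), while none of 4 tested endothelial markers was called by the authors' DESeq2 fit, all in their deposited table, and 0 of those 4 had an unadjusted p under 0.05. Of 6 tested neuron markers 2 fell (median -0.21) in the authors' deposited table. Jag1 and the Notch receptors are also known from those cells. In bulk samples fewer cells of a type and less RNA per cell cannot be told apart, and the part of these lists in the results was not tested.

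In the retina, clustering without the windows of the Notch pathway gave 11 clusters, of which 9 carried the markers of 6 classes. Muller glia-like cells, in which all 8 markers of the list were more than 1.5-fold above the other cells in both of their clusters, came to 632 control and 132 Ikzf1/4 cells, or 34.0% and 19.6%. The others were rod-like (94 and 137), cone-like (263 and 143), bipolar-like (361 and 127), amacrine-like (71 and 3) and microglia-like cells (116 and 18), and 2 clusters of 390 and 45 cells stayed unnamed. The genes that led cluster 2, the smaller Muller glia-like cluster (256 control and 71 Ikzf1/4 cells, beside 376 and 61 in cluster 0), included Ccn1, an immediate-early response gene. Most cells of both libraries thus lay outside the Muller glia-like class, with the unnamed clusters counted as outside. Only the control is labelled as Muller glia. Each value below is the count of fragments over a window, per 1000000 fragments of the same cells (CPM), with an exact Poisson interval at 95% that covers counting error only. There is 1 library per group, so that no difference between the libraries has a replicate check, and classes are compared within the same 2 libraries.

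The windows of Notch1 and Hes1 and the Hes5 start site were most open in Muller glia-like cells. Windows of 5 of the 10 genes (Notch1, Notch2, Hes1, Hes5, Hey2) were more than 1.25-fold above the other cells, where 14.9% of 16221 windows were. None was more than 1.25-fold below in the summed libraries, where 47.7% of windows were. The median ratio over all windows was 0.814, and over the 10 genes 1.33. Around the start sites, within 500 bp on both sides, the same 5 of 9 genes with enough fragments were above 1.25-fold, against 10.9% of 11272 start sites. In single libraries 1 window was below, Jag1 in the control (beside 46.4% of windows) and Notch3 in the Ikzf1/4 library (beside 47.9%). In the Ikzf1/4 library alone 4 windows were above, without Hes5, beside 15.1%.

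Among the receptors, the Notch1 window (chr2:26457902-26503822, mm10, before the 2 kb are added) had 256 CPM (243 to 269) in Muller glia-like cells and 71.8 in the others, a ratio of 3.56 (3.30 to 3.86). The control gave 256 and the Ikzf1/4 library 256 CPM in this class. Microglia-like cells followed at 153 CPM and rod-like cells at 118, whose intervals overlap, then cone-like (61.7) and amacrine-like cells (61.6), again overlapping, and bipolar-like cells at 36.3. Every class other than Muller glia-like was thus lower than it by more than counting error in the summed libraries, while in the Ikzf1/4 library alone the interval of its 18 microglia-like cells (149 to 263) overlapped. At the start site Muller glia-like cells had 32.7 CPM (28.1 to 37.8), microglia-like cells 25.9 (18.3 to 35.5), which overlap, bipolar-like cells 1.54, and amacrine-like cells 0 fragments, which allows up to 5.41 CPM at that depth. Of the Ikzf1/4 cells the microglia-like ones were highest there, at 43.2 CPM (21.6 to 77.3) on 11 fragments, against 30.6 (22.5 to 40.5) in Muller glia-like cells.

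The Notch1 signal sat at different places in different classes. In bins of 500 bp, the bin centred 2171 bp downstream of the start held 31.2 CPM in Muller glia-like cells and at most 3.37 in another class's cells. A bin at 3171 bp was shared, with 24.9 CPM in Muller glia-like, 25 in rod-like and 11.6 in cone-like cells. Microglia-like cells had their highest bin at 20171 bp, with 26.5 CPM against at most 1.61 elsewhere. All 3 bins lie in the gene; whether in an exon or intron was not analysed here. Their fragments came from both libraries, with 126 control and 48 Ikzf1/4 fragments in the first.

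The Notch2 window (chr3:98013538-98150367) had 187 CPM (176 to 199) in Muller glia-like and 176 (155 to 198) in microglia-like cells, which overlap. Cone-like cells followed at 142, bipolar-like at 100, amacrine-like at 90.9 and rod-like cells at 64.0. Its start site was open in all 6 classes, between 8.18 CPM in rod-like and 35.0 in Muller glia-like cells. Inside the gene the classes again had bins of their own: 11249 bp from the start in Muller glia-like cells (14.4 against at most 4.08 CPM), 117749 bp in bipolar-like cells (15.7 against 1.44), 33249 bp in microglia-like cells (12.9 against 1.16), and 32249 bp in cone-like (23.8) and rod-like cells (14.4). Notch3 (chr17:32120820-32166896) showed no order, with 26.4 to 33.7 CPM over the 6 classes and overlapping intervals between all neighbours, although microglia-like cells had 39.5 CPM in control cells and 1 fragment in the 18 Ikzf1/4 cells. Its start site held 14 fragments in Muller glia-like cells and 11 in all others.

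The 2 ligands differed in their order over the classes. Jag1 (chr2:137081451-137116520) had 111 CPM (96.8 to 126) in rod-like and 91.3 (82.5 to 101) in cone-like cells, which overlap. Muller glia-like cells had 48.3 CPM, microglia-like 46.3, amacrine-like 33.7 and bipolar-like 26.0, each overlapping the next. At the start site rod-like and cone-like cells had 35.6 and 26.4 CPM, Muller glia-like and microglia-like cells 14.5 and 14.3, and bipolar-like and amacrine-like cells 3.35 and 1.47; the intervals overlap within each of these 3 pairs, and those of cone-like and Muller glia-like and of microglia-like and bipolar-like cells do not. Against all other cells the Muller glia-like window stood at 0.837 (0.728 to 0.959), but at 1.22 (1.01 to 1.48) in cells of at least 10000 fragments. In the Ikzf1/4 library alone rod-like cells (101) were followed by the 18 microglia-like cells at 94.2 CPM (60.4 to 140), which had 36.2 in the control, then by cone-like (72.3) and Muller glia-like cells (70.7), and each of these overlapped the next. The Jag1 window overlaps that of Slx4ip. Dll1 (chr17:15367354-15376932) was highest in cone-like cells, at 53.0 CPM (46.3 to 60.3), above Muller glia-like cells at 26.4 and rod-like cells at 18.8, while amacrine-like cells held 3 fragments. In the control alone rod-like cells were second, at 34.4 CPM (21.3 to 52.6), which overlaps the 46.0 of cone-like and the 24.2 of Muller glia-like cells, and in the Ikzf1/4 library they had 12.3.

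Among the effectors, Hes1 (chr16:30065357-30067796), the repressor that oscillates in neural progenitors, had 195 CPM (184 to 207) in Muller glia-like cells, 3.77 times (3.45 to 4.14) the 51.8 of the other cells. Microglia-like cells had 106 CPM and cone-like cells 77.9, and the 3 intervals do not overlap. Amacrine-like (36.7), rod-like (29.3) and bipolar-like cells (17.8) were lowest, each overlapping the next. Bipolar-like cells had 24.2 in control and 6.90 in Ikzf1/4 cells, but the class drew on different clusters. Cluster 4 held 247 control and 9 Ikzf1/4 cells, and cluster 5 held 114 and 118. No strand was given for Hes1 and Hey1, so that the regions at both ends of the gene stand for the start site; for Hes1 they held 59.8 CPM in Muller glia-like cells against 10.8, a ratio of 5.54 (4.60 to 6.69). The most open bin of Muller glia-like cells lay outside the gene, at chr16:30063857-30064356, with 55.3 CPM and at most 29.3 in another class.

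Hes5 (chr4:154960626-154962372), a repressor known for its dependence on Notch signalling in neural progenitors, differed less over its window than at its start. The window had 84.0 CPM (76.6 to 92.0) in Muller glia-like, 66.6 in cone-like and 61.6 in rod-like cells, a ratio of 1.59 (1.42 to 1.78) to all other cells. The start site, which takes in the promoter printed above, had 44.5 CPM (39.1 to 50.4) in Muller glia-like cells and between 6.18 and 10.3 in the other 5 classes, a ratio of 5.51 (4.44 to 6.87) to all other cells. The bin over the start alone held 45.5% of the window's signal in Muller glia-like cells, at 36.6 CPM against at most 7.33. In the other classes the highest bins were 2952 and 3326 bp past the start, on the side where the window overlaps that of Pank4, with 21.7 CPM in cone-like and 21.6 in rod-like cells against 10.9 and 11.7 in Muller glia-like cells.

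Hey2 (chr10:30832359-30842783) had 106 CPM in rod-like and 105 in Muller glia-like cells, overlapping, and 39.5 to 58.3 in the other classes. The bin centred at -325 bp from its start, which overlaps the printed promoter, was the highest bin in all 6 classes, from 21.1 CPM in microglia-like to 64.0 in rod-like cells. Hey1 (chr3:8663359-8667038), whose window overlaps LOC115489673, ran from 40.8 CPM in microglia-like to 96.0 in cone-like cells, with a ratio of Muller glia-like to other cells of 1.06 (0.954 to 1.18). Rbpj (chr5:53555779-53657445) ran from 96.8 CPM (74.8 to 123) in amacrine-like to 159 (139 to 180) in microglia-like cells; every neighbouring pair overlapped, but Muller glia-like and amacrine-like cells lay below cone-like, rod-like and microglia-like cells without overlap. Its Muller glia-like value was 118 (109 to 127), a ratio of 0.850 (0.778 to 0.927) to other cells, close to the median window.

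Per kilobase of window and over all cells, the effectors were the most open of the 10 genes, with Hes1 at 13.7, Hes5 at 10.6, Hey1 at 10.4 and Hey2 at 4.83 CPM per kb. Notch1 followed at 2.38, Dll1 at 1.86, Jag1 at 1.42, Rbpj at 1.26, Notch2 at 0.903 and Notch3 at 0.616. Short genes hold a larger share of flank and start site in a window, which this scale does not remove.

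**Figure D2:**
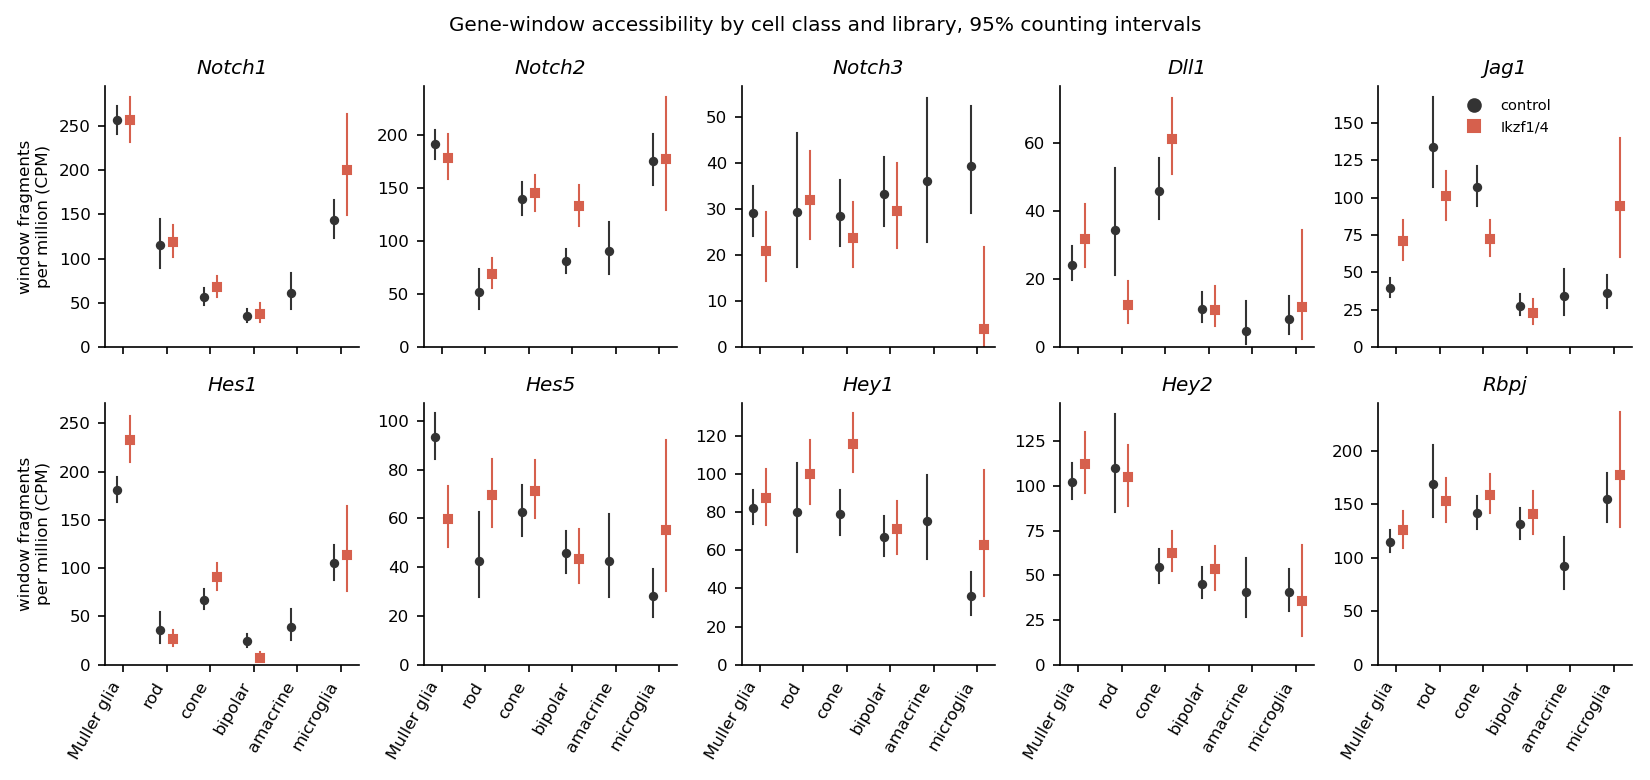
Gene-window accessibility of the 10 genes by cell class (y axis, CPM of all fragments of the same cells; x axis, classes named from markers), for the control (circles) and the Ikzf1/4 library (squares), each a single library; lines are 95% counting intervals and groups under 10 cells are left out. Notch1 and Hes1 stand highest in Muller glia-like cells of both libraries, Jag1 in rod-like cells, and Hes5 in Muller glia-like cells of the control only.

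By class, 4 of the 10 windows (Hes1, Hes5, Notch1, Notch2) had their highest value in Muller glia-like cells, where 8.75% of 11263 windows did. Rod-like cells held the highest value for Hey2 and Jag1, beside 42.6% of all windows. Across the 10 clusters of at least 50 cells, on a log2(CPM + 1) scale, the windows most like Hes5 were Olfm2 and Mmd2 (Pearson's r 0.97 each) and Epb41l5 (0.96). Those most like Hes1 were Id3 (0.95), Apoe and Synpo (0.94 each), and those most like Notch1 were Hdgf (0.99), Mafk and Zcchc24 (0.98 each), out of 11250 windows. The clusters share their libraries, and Apoe is a marker of the Muller glia list.

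**Figure D3:**
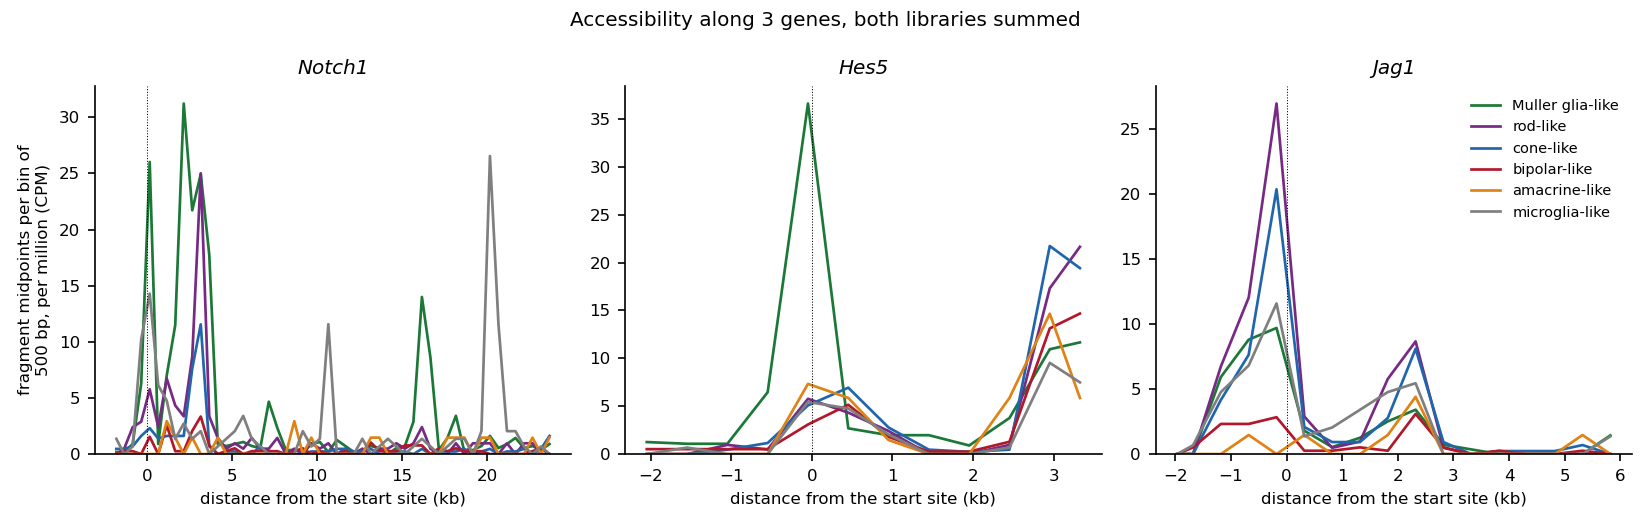
Fragment midpoints per bin of 500 bp along Notch1, Hes5 and Jag1 (y axis, CPM; x axis, distance from the start site in kb), both libraries summed, with a line per class. Muller glia-like cells peak at 31.2 CPM inside Notch1 and at 36.6 CPM over the Hes5 start, and rod-like cells at 26.9 CPM beside the Jag1 start.

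In the wider pathway, Muller glia-like cells had the highest ratio for Lfng, the Fringe transferase that tunes which ligands a receptor answers to, with 128 against 24.9 CPM in other cells, or 5.15-fold. Nrarp, a Notch-induced inhibitor of the pathway, stood at 2.85 and the ubiquitin ligase Dtx1 at 1.71. Of the 55 windows outside the 10 genes 8 were above 1.25-fold (14.5%) and 22 below its inverse (40.0%), close to the shares of all windows, 14.9% and 47.7%. The counts by role that follow stand beside the same shares. Of 5 ligands none was above and 3 were below, with Jag2 at 0.236, and of 5 sugar-modifying enzymes Lfng was above and 4 below, with Mfng at 0.235. Among 4 ligand ubiquitin ligases Neurl1a stood at 0.257. Of 9 negative regulators 3 were above (Nrarp, Dtx1, Dtx4) and 3 below (Numbl, Itch, Fbxw7), with a median of 0.828. The median over proteases was 0.844, over co-activators with Rbpj 0.850 and over co-repressors 0.846.

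**Figure D4:**
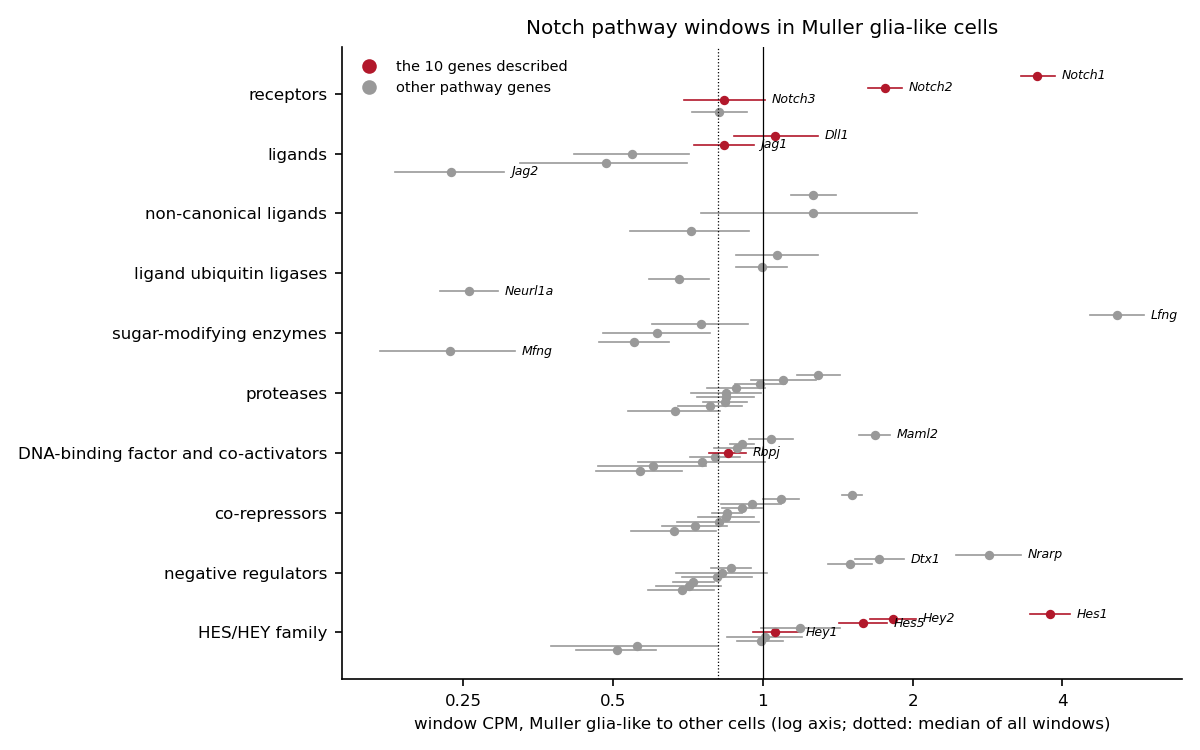
Ratio of window CPM in Muller glia-like to other cells for the Notch pathway by role (x axis, log scale; lines, 95% counting intervals; both libraries summed). Lfng, Hes1 and Notch1 lie farthest right, at 5.15, 3.77 and 3.56, and the dotted line marks the median of all windows, 0.814.

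Between the libraries, over all cells, the ratios of the 10 windows lay between 0.803 (Notch3) and 1.31 (Dll1). The windows of Dll1 (22.5 CPM in the control, 29.5 in the Ikzf1/4 library, ratio 1.31, 1.11 to 1.56) and Hey1 (72.8 and 91.2, ratio 1.25, 1.14 to 1.38) were more than 1.25-fold higher in the Ikzf1/4 library, beside 18.6% of 15531 windows, and none was lower by that factor, beside 10.1%. With the Ikzf1/4 clusters weighted to the control's mix Dll1 stood at 1.09, no longer past 1.25-fold, and Hey1 at 1.35. Jag1 (1.23, 1.10 to 1.38) and Rbpj (1.13, 1.05 to 1.22) were higher and Notch1 (0.863, 0.795 to 0.936) and Notch3 (0.803, 0.681 to 0.944) lower, all within 1.25-fold. At the control's mix Notch1 turned to 1.01 and Hes1 from 0.925 to 1.19, and Notch3 (0.643), Hes5 (0.775) and Jag1 (1.31) passed 1.25-fold. These weighted ratios carry no interval, and small Ikzf1/4 clusters take the weight of the control's cells. For Notch3 the Ikzf1/4 library held 1 fragment in 18 microglia-like cells and 0 in 3 amacrine-like cells. Over all barcodes Notch3 turned to 1.03. The median of all windows was 1.09 and that of the start sites 1.19, so ratios are to be read against these. At the start sites Hes5 (0.599, 0.473 to 0.753), Hes1 (0.742, 0.612 to 0.896) and Notch1 (0.775, 0.597 to 1.0) were lower by that factor and Dll1 (1.33) and Hey1 (1.28) higher, where 1.89% of 10799 start sites were lower and 38.0% higher. The Muller glia-like share was 34.0% of control and 19.6% of Ikzf1/4 cells, and its part in these values was not tested. Within Muller glia-like cells the ratios of the Hes1 and Notch1 start sites were 1.14 (0.896 to 1.45) and 0.913 (0.643 to 1.28), and that of Hes5 was 0.550.

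Inside the Muller glia-like class the Hes5 window was lower and the Jag1 window higher in the Ikzf1/4 library. Of 9 windows with at least 50 fragments in each library, 3 (Dll1, Jag1, Hes1) were more than 1.25-fold higher, beside 24.8% of 8451 windows, and 1 (Hes5) was lower, beside 5.56%. The median of all windows was 1.10. Notch1 held 256 CPM in each library (ratio 1.0, 0.890 to 1.13) and Notch2 191 and 178 (0.936, 0.813 to 1.07). Hey1, Hey2 and Rbpj lay between 1.06 and 1.10, with intervals that include 1.

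Hes5 had 93.5 CPM from 374 fragments in the control and 59.9 CPM from 94 fragments in the Ikzf1/4 library, which is 0.641 times as much (0.506 to 0.805). At its start site the values were 51.0 and 28.0 CPM, from 204 and 44 fragments, a ratio of 0.550 (0.388 to 0.765). For the Hes5 window each of the 2 Muller glia-like clusters gave a ratio below 1, 0.726 (0.544 to 0.956) in cluster 0 and 0.495 (0.317 to 0.749) in cluster 2. The latter rested on fewer than 50 fragments in at least 1 library. In cells of at least 10000 fragments the ratio was 0.714 (0.512 to 0.993) for the window and 0.569 (0.345 to 0.925) for the start site. The start site was still higher than in other cells of the same library, by 3.21 (2.12 to 4.81) in the Ikzf1/4 and 6.72 (5.11 to 8.93) in the control library, and the whole window no longer was, at 1.0 (0.791 to 1.25) against 1.96 (1.70 to 2.26). The window also takes in the 2 bins on the Pank4 side, with 51 and 50 control and 14 and 11 Ikzf1/4 fragments in Muller glia-like cells. Rod-like cells were 5.1% of control and 20.3% of Ikzf1/4 cells, and cone-like cells 14.2% and 21.2%. The part of these bins and of this mix in the ratios was not tested.

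Jag1 had 39.5 and 70.7 CPM in the 2 libraries, a ratio of 1.79 (1.39 to 2.30), and 11 and 23.6 CPM at its start site, a ratio of 2.14 (1.35 to 3.40) on 44 and 37 fragments, where the median start site of the class with at least 50 fragments in each library stood at 1.16. In cells of at least 10000 fragments the window ratio was 1.25 (0.877 to 1.78), whose interval includes 1. Clusters 0 and 2 gave 1.58 (1.18 to 2.11) and 2.81 (1.66 to 4.82), beside medians of all windows of 1.1 and 1.21. The ratio of cluster 2 rested on fewer than 50 fragments in at least 1 library. Hes1 had 181 and 233 CPM, a ratio of 1.29 (1.13 to 1.47), but cluster 0 gave 1.0 and cluster 2 1.60, and cells of at least 10000 fragments 1.01 (0.811 to 1.27). Dll1 rested on 97 and 50 fragments, with an interval of 0.915 to 1.87.

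Marker lists named for other cell types moved in the same Muller glia-like cells. Their ratios are to be read against the medians of the class, 1.10 over all windows and 1.16 over start sites, and 1.21 over the windows of cluster 2. The Muller glia list itself lay close to the medians of the class. The summed windows of the 8 Muller glia markers went from 779 to 889 CPM (1.14, 1.07 to 1.22), those of 7 rod markers from 85.2 to 127 (1.5, 1.25 to 1.79; 6 of 7 above 1) and those of 5 autosomal cone markers from 215 to 287 (1.33, 1.19 to 1.5; 2 of 3 with at least 20 fragments above 1), with no marker window at 0 in either library. The 2 windows listed for astrocytes, Gfap and Pax2, went from 41.2 to 75.8 CPM (1.84, 1.44 to 2.34). Whether these 2 are particular to astrocytes was not tested. The 4 horizontal cell markers went from 68.0 to 49.7 (0.731, 0.561 to 0.944; 0 of 4 above 1), and the ganglion, microglia, bipolar, amacrine and vascular lists lay between 0.826 and 1.07. At the start sites the ratios were 2.65 (1.49 to 4.72) for rod, 1.73 (1.3 to 2.29) for cone and 5.31 (2.57 to 11.6) for astrocyte markers, the last on 12 and 25 fragments and each with 1 marker of at least 20 fragments, and 1.47 (1.15 to 1.87) for bipolar markers. Rod-like and cone-like cells have the highest Jag1 windows of the summed libraries. In cluster 0 the rod list had a ratio of 1.94; in cluster 2, where the Jag1 ratio was 2.81, it had 0.725 (0.484 to 1.06), while the cone list had 1.25 (1.01 to 1.54) and the astrocyte list 2.36 (1.63 to 3.41) there, each with 1 marker above and 1 below 1 of the 2 with at least 20 fragments. The part of these markers in the other results was not tested. The Ikzf1/4 cells of the class also had more fragments, with a median of 8102 against 5419.

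**Figure D5:**
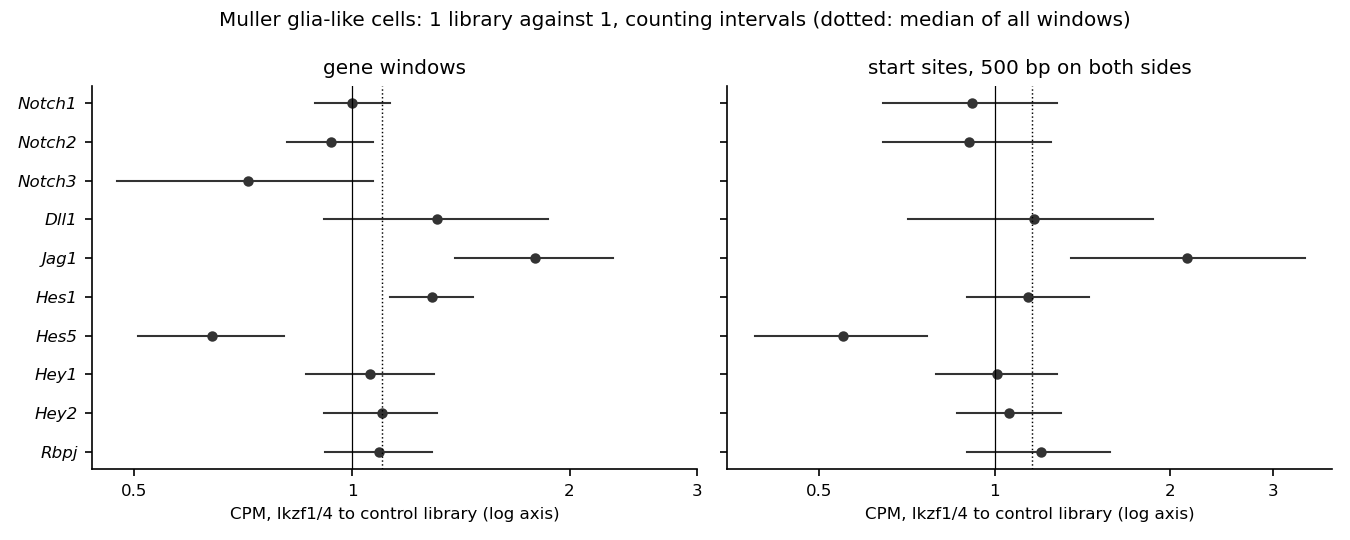
Ratio of CPM in the Ikzf1/4 to the control library in Muller glia-like cells for gene windows (left) and start sites (right; Notch3 is left out for its low count); x axis, log scale, with 95% counting intervals of 1 library against 1. Hes5 lies left of 1 in both panels, at 0.641 and 0.550, and Jag1 right of it, at 1.79 and 2.14.

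In the photoreceptor-like classes the Jag1 ratio was below 1. Jag1 went from 107 to 72.3 CPM in cone-like cells (0.673, 0.544 to 0.830) and from 134 to 101 in rod-like cells (0.749, 0.568 to 0.994), while the median windows of these classes stood at 1.05 and 1.02. The cone-like class drew on different clusters in the libraries, with 251 of 263 control cells in cluster 3 and 119 of 143 Ikzf1/4 cells in cluster 8, and the Jag1 ratio was 0.663 (0.357 to 1.13) in the former, on 14 Ikzf1/4 fragments, and 1.11 (0.612 to 2.20) in the latter, on 12 control fragments, so that neither cluster alone shows a difference beyond counting error. Hey1 was 1.46 (1.20 to 1.78), Hes1 1.34 (1.08 to 1.68) and Dll1 1.33 (1.02 to 1.74) in cone-like cells. In clusters 3 and 8 the ratios were 2.29 (1.53 to 3.32) and 1.18 (0.718 to 2.07) for Hey1, 1.53 (0.906 to 2.44) and 1.82 (0.934 to 4.05) for Hes1, and 0.788 (0.309 to 1.68) and 1.68 (0.787 to 4.26) for Dll1, whose direction thus differed. Outside Muller glia-like cells, the other ratios in named classes whose intervals exclude 1 rest on fewer than 50 fragments in a library, apart from Notch2 in bipolar-like and Notch1 in microglia-like cells (1.40, 1.0 to 1.92, from 174 and 51 fragments, where the median window of the class was 1.26). In rod-like cells Hes5 was 1.63 (1.05 to 2.61), on 26 and 102 fragments, and Dll1 0.356 (0.179 to 0.702), on 21 and 18. Hes1 was 0.285 (0.130 to 0.562) in bipolar-like cells, on 59 and 10 fragments, in a class made of different clusters in the libraries. In microglia-like cells Jag1 was 2.60 (1.51 to 4.37), on 44 and 24 fragments, and Notch3 0.0993 (0.00246 to 0.580), on 48 and 1. In the unnamed cluster 10 Jag1 stood at 3.20 (1.72 to 6.16), on 17 and 31 fragments, the latter from 4 cells, where the median window was 1.43; Dll1 (4.56, 1.53 to 16.3), Hey1 (3.12, 1.3 to 8.0) and Hes1 (1.91, 1.04 to 3.51) were above 1 there as well. In bipolar-like cells Notch2 went from 80.9 to 133 CPM (1.64), but the class was made of different clusters, of which cluster 5 gave 1.12 (0.868 to 1.45) and cluster 4, with 9 Ikzf1/4 cells and 3 fragments, 0.610 (0.124 to 1.83).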

How the data were processed

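For the fibroblasts, estimated counts per transcript came from Salmon on poly(A) RNA, per the labels, and served here for depth only, since no table in use pairs transcripts with genes. The authors' deposited gene table comes from DESeq2, per the labels and the submitters' processing notes, and was used as deposited: its mean normalised signal per gene, log2 fold change with standard error, Wald score, p-value and adjusted p (a gene is called under 0.05). No source used here states versions, the annotation or shrinkage of fold changes. For the retina, counts of read pairs per unique ATAC fragment were made with cellranger-arc 2.0.1 on mm10, per the file headers (Cell Ranger ARC 2.0 per the submitters' processing notes); each fragment was counted once here.

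Gene windows came from RefSeq (GRCm38.p6), with 2000 bp added on both sides; start sites took 500 bp on both sides. Cells had at least 3000 fragments, an enrichment at gene ends of 4 or more, and lay below the 99th percentile of fragments of their library, the only step against doublets. They were clustered on 16636 autosomal windows, without 111 of the Notch pathway and overlapping genes, over 24 components and 20 neighbours by Leiden at resolution 1 (Python 3.11.15, NumPy 2.4.6, pandas 2.3.3, SciPy 1.17.1, scikit-learn 1.9.0, igraph 0.11.9, leidenalg 0.10.2, matplotlib 3.10.9). A cluster took a class name when at least 3 markers of a list were over 1.5-fold above the other cells. Ratios carry exact conditional binomial intervals at 95%, tested on simulated data. Windows were counted past 1.25-fold with at least 50 fragments in each library, or 100 summed for classes; no p was computed for 1 library against 1.

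The 10 genes, the role lists and the marker lists were chosen with earlier results of these data known. All 10 are named; of each role the called genes are named, at most 3 by size of change, except that in the retina the genes named by role were chosen after their ratios were seen, from the ends of the range. Kyat1 stands among the co-repressors by a slip and was not called. One called gene of the wider pathway is not reported here. The MEF ATAC peak lists were not used, because mm9 and mm10 are both named for the series without saying which applies to them. Alternatives covered thresholds, cell filters, scaling, window and start-site size, resolution and each library or cluster alone.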

Additional observations from a re-analysis of the deposited data

Results flagged for a closer look

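The Jag1 window differed between cell classes in the direction of its ratio of the Ikzf1/4 to the control library. It was 1.79 (1.39 to 2.30) in Muller glia-like cells, against a median of all windows of 1.10. It was 0.749 (0.568 to 0.994) in rod-like cells and 0.673 (0.544 to 0.830) in cone-like cells, against medians of 1.02 and 1.05. It was also above 1, at 2.60 (1.51 to 4.37) in microglia-like cells, with 18 cells in the Ikzf1/4 library and a median window of 1.26, and at 3.20 (1.72 to 6.16) in the unnamed cluster 10, with 4 Ikzf1/4 cells and a median window of 1.43. Its interval includes 1 in bipolar-like cells (0.816, 0.521 to 1.25) and the unnamed cluster 1 (1.22, 0.744 to 2.00), and the Jag1 start site of microglia-like cells stood at 0.795 (0.150 to 2.72). With 1 library per group the difference between the classes was not tested, and the intervals cover counting error only. In Muller glia-like cells of at least 10000 fragments the ratio was 1.25 (0.877 to 1.78), and in the cluster that held most of the Ikzf1/4 cone-like cells it was 1.11 (0.612 to 2.20), on 12 control fragments.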

How the results depend on the processing

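Of 28 alternative settings for the 5 counts reported, 24 stayed within 1.5 times the reported count. With an absolute log2 fold change over 1 required as well, 0 of the 10 genes were called in the fibroblasts, in place of 4, and 1 pathway gene (Dlk1), in place of 20. At that limit 2.15% of all 16757 genes were called. Over all cells, 4 windows were past 1.25-fold between the libraries, in place of 2, when the gene body alone was counted (Dll1, Jag1, Hes5, Hey2) and when the Ikzf1/4 clusters were weighted to the control's mix (Notch3, Jag1, Hes5, Hey1). At the reported setting 28.7% of 15531 windows were past that factor, and the shares at the other settings are not given here. Fewer fragments and another cell mix are part of how these settings were built, and the cause was not tested. Among ratios of single genes whose interval excludes 1, 5 of 160 settings turned the ratio to the other side of 1: the library ratio of Notch1 over all cells, from 0.863 to 1.01 at the control's mix, that of Notch3, from 0.803 to 1.03 over all barcodes, Jag1 in Muller glia-like to other cells, from 0.837 to 1.22 at 10000 fragments or more and 1.17 in the Ikzf1/4 library alone, and the Hey1 start site, from 1.16 to 0.969 in that library alone. Among ratios whose interval includes 1, 12 of 72 settings did, such as the Hey1 window in Muller glia-like to other cells, from 1.06 to 0.948 in that library alone. The Hes5 ratio between libraries in Muller glia-like cells stayed between 0.495 and 0.726 over 6 settings. Settings for single libraries, single clusters, the control's mix and named clusters only were chosen after seeing the data. No paired analysis was possible because no table used here pairs the transcripts of the 6 numbered fibroblast libraries with genes, so that gene values come as one finished comparison, and the retina has 1 library per group; edgeR, a new DESeq2 fit and leaving out each replicate were not run for the same reason. Depth limits the Notch3 start site, amacrine-like cells of the Ikzf1/4 library (3 cells), its microglia-like cells (18) and clusters 4 and 10 (9 and 4).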
